A study of Mus musculus with 7 samples.

Results

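Interferon response genes are genes that cells switch on when they sense type I interferons or interferon gamma. The set described here holds 40 of them, chosen by gene symbol from a list of known interferon-induced genes. All 40 were among the 24421 genes of the count table, and 39 were among the 12428 genes with enough reads to be tested. The member left out of the test was Gbp6. RNA sequencing was done on eosinophils, granulocytes of type 2 immunity, sorted from digested muscle of mice labelled WT (3 libraries) or IL5-Tg (4 libraries), the latter named for a transgene of IL-5, the cytokine that drives eosinophil production. In both groups muscle was taken 3 days after ntx, an abbreviation the labels do not spell out, and cells were sorted as positive for CD45 and SiglecF and negative for NK1, Ly6G and CD3e, with a gate on CD11b that is written CD11bing. The series title concerns mdx mice, a model of Duchenne muscular dystrophy, whereas the labels of the samples give no more than WT or IL5-Tg. The sources used here do not give strain, age, sex or the cells in which the transgene is active. Nothing in the labels says that each library is a different mouse, and p-values therefore describe the spread among these 7 libraries, which may be technical. Replicate numbers follow accession order and only name a library. Among them IL5-Tg replicate 3 stood apart by low levels of these genes, and WT replicate 1 was the lowest WT library for most of them. WT replicate 3 stood apart by little fibroblast and muscle RNA and had the fewest genes detected, 10877. Values are therefore given library by library.

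Type I interferons signal through the receptor Ifnar1 and Ifnar2 to transcription factors, Stat2 and Irf9 among them, that bind the interferon-stimulated response element (ISRE) in the promoters of antiviral genes. Interferon gamma signals through Ifngr1 and Ifngr2 to the gamma-activated site (GAS) in promoters and induces Irf1, guanylate-binding proteins, immunity-related GTPases and the machinery of antigen presentation. Many of the genes answer to both kinds of interferon. In muscle, a raised level of these genes is known from inflammatory disease such as dermatomyositis, and eosinophils carry receptors for both kinds.

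Promoter sequence shows which motifs these genes share. A window from 250 bases before to 50 bases after the start of transcription was listed in RefSeq (GRCm38.p6) for 29 of the 40 genes. The ISRE was searched as TTTC, any 2 bases and TTTC again, or on the other strand GAAA, any 2 bases and GAAA, and the GAS as TTCNNNGAA, which reads alike on both strands. An ISRE match was present in 17 of the 29 genes (58.6%), against 3.99% of 27025 mouse genes with a window. A GAS match was present in 8 of 29 (27.6%), against 9.55% of all genes. All 4 guanylate-binding protein genes with a window and all 3 such immunity-related GTPase genes had an ISRE match. A match is a string of letters and does not show binding. The 160 bases before the start are printed for 8 genes, chosen after the search to show both motifs in genes described here and in neighbouring gene copies, 5′ to 3′ on the gene's strand, with ISRE and GAS matches in capitals.
Isg15, chr4:156200819-156200978, minus strand: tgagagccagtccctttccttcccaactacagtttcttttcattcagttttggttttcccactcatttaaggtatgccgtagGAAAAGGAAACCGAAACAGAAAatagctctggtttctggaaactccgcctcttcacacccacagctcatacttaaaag
Rsad2, chr12:26456453-26456612, minus strand: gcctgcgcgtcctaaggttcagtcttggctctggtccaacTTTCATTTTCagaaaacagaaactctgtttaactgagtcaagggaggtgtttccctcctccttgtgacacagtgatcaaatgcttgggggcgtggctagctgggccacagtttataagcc
Ifit3, chr19:34583369-34583528, plus strand: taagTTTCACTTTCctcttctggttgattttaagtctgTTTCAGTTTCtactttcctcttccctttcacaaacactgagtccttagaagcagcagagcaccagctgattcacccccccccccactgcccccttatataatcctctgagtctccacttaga
Ifit3b, chr19:34607797-34607956, plus strand: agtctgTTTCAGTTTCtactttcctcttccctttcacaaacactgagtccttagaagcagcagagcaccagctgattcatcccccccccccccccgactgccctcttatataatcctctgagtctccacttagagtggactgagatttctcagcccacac
Gbp7, chr3:142530176-142530335, plus strand: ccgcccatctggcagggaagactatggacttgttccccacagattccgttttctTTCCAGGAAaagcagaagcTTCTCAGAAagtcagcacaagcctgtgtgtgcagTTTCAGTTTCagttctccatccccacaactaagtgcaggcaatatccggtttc
Igtp, chr11:58199396-58199555, plus strand: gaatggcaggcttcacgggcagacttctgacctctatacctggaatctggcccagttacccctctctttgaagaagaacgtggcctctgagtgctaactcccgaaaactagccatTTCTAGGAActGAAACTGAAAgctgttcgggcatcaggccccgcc
Irgm2, chr11:58214817-58214976, plus strand: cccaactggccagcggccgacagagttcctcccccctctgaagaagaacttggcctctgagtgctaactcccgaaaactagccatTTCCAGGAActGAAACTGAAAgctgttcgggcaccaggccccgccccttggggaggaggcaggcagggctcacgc
Irf1, chr11:53769854-53770013, plus strand: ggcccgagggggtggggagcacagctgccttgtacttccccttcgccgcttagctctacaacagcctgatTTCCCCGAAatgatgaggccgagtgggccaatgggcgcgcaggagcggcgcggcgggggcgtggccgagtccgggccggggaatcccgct
In Isg15 the capitals are 3 overlapping ISRE matches that begin 78, 72 and 66 bases before the start. In Igtp and Irgm2 a GAS match (TTCTAGGAA and TTCCAGGAA) stands just before an ISRE match (GAAACTGAAA). Gbp7 has 2 GAS matches before its ISRE match, and Irf1 has a GAS match only. The printed bases of Ifit3 and Ifit3b share 134 aligned positions with 94.0% identity, and those of Igtp and Irgm2 share 107 positions with 92.5% identity. In their full windows Ifit3 and Ifit3b each have 2 ISRE matches. The Ifit3b match that begins 188 bases before the start lies outside the printed bases.

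Sorted cells of both groups held RNA of most of these genes, and none of the 39 tested ones differed between IL5-Tg and WT beyond the spread between libraries. Of 39 tested genes 0 passed edgeR's quasi-likelihood test at an adjusted p under 0.05, where 0.41% of all tested genes passed (0.338% higher and 0.0724% lower in IL5-Tg). At an unadjusted p under 0.05 there was 1 gene, Iigp1. The share of all tested genes at that unadjusted p was not counted, so this is a description only. DESeq2 called 1 of 40 members, Gbp6, where it called 224 of 14192 genes (1.58%). No tested member had groups that did not overlap, against 9.36% of all tested genes (4.6% lower in IL5-Tg). The log2 fold changes (IL5-Tg over WT) ran from -0.84 to 1.71, 15 above and 24 below 0, with a median of -0.11. Over all tested genes the median was 0.03. The intervals were wide, so this does not show that levels were equal. For Isg15 the 95% interval of the log2 fold change was -1.25 to 1.44 and for Rsad2 -1.88 to 1.24, whereas for Psmb9 it was -0.65 to 0.71 and for Stat2 -0.75 to 0.78.

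**Figure D1:**
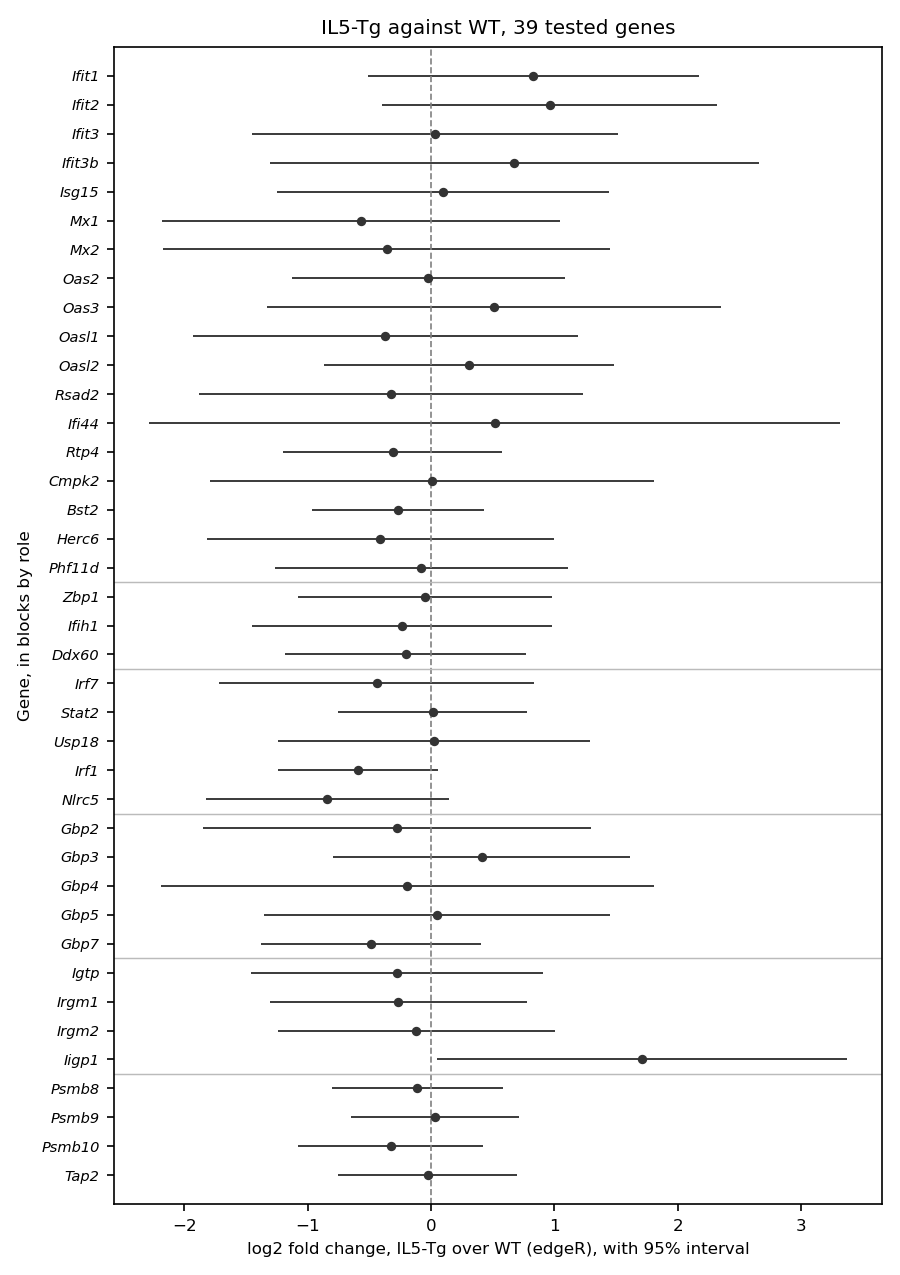
Log2 fold change of IL5-Tg over WT (x axis, edgeR) for the 39 tested interferon response genes (y axis, in blocks by role), with 95% intervals as bars. The interval of Iigp1 alone leaves out 0, and its adjusted p was 0.536.

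The direction of the set as a whole depended on single libraries. Without WT replicate 1, 32 of 40 tested genes had a log2 fold change below 0 and the median was -0.35. Without WT replicate 3, 32 of 40 were above 0 and the median was 0.34. Without IL5-Tg replicate 3, 25 of 39 were above 0 and the median was 0.07. Without IL5-Tg replicate 2, 31 of 39 were below 0 and the median was -0.33, and without IL5-Tg replicate 4, 28 of 39 were below 0 and the median was -0.19. None of these 5 fits called a member.

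Libraries of a group differed widely, and the same libraries were low or high in most of the genes. IL5-Tg replicate 3 was the lowest of the 4 IL5-Tg libraries in 34 of the 39 tested genes (87.2%), while over all tested genes it was the lowest in 18.2%. WT replicate 1 was the lowest WT library in 27 of 39 (69.2%), against 24.3% of all tested genes. WT replicate 3 was the highest WT library in 29 of 39 (74.4%), against 29.9% of all tested genes, although it was the lowest WT library in 42.3% of those. The summed level of the 40 genes was 1730, 3225 and 3906 CPM in the WT libraries and 2932, 3795, 1400 and 2613 CPM in the IL5-Tg libraries, in the order of replicate numbers that all values below follow (CPM, counts scaled to one common library size with TMM factors). The genes were chosen with results of these libraries known, so these ranks are a description without a test.

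**Figure D2:**
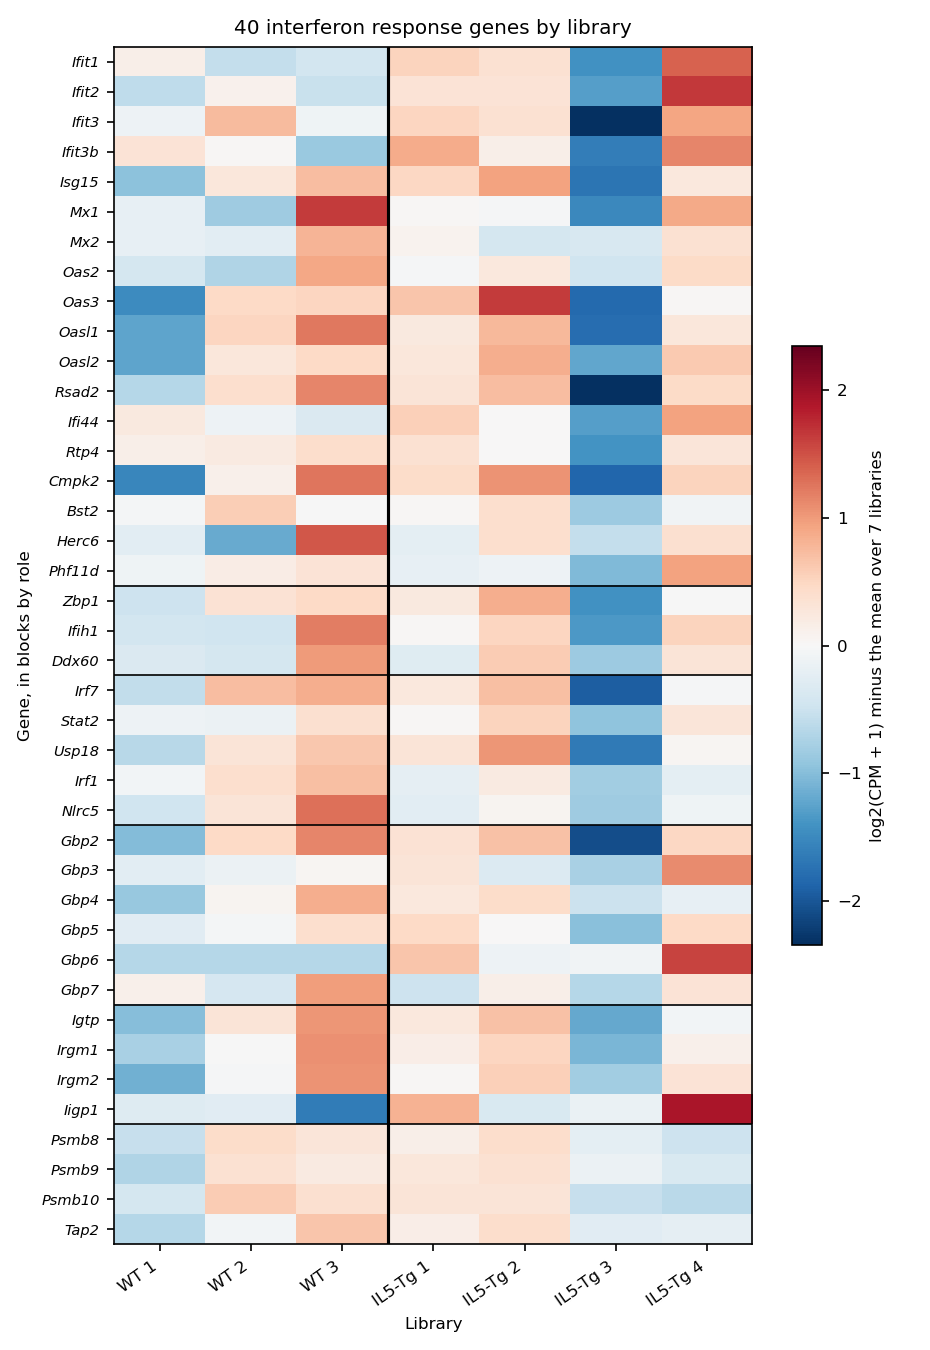
Level of each of the 40 genes (rows, in blocks by role) in each library (columns), as log2(CPM + 1) minus the gene's mean over the 7 libraries, with blue for lower and red for higher. The column of IL5-Tg replicate 3 is the lowest of its group in 34 of 39 tested genes, and WT replicate 3 is the highest of its group in 29.

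The 2 low libraries, WT replicate 1 and IL5-Tg replicate 3, have titles that start with 82C. The labels do not say what this shared start means. Another WT and IL5-Tg pair, WT replicate 2 and IL5-Tg replicate 4, shares the start 86A. Within the 82C pair the IL5-Tg library was lower in 32 of 40 genes, with a median difference of -0.62 in log2(CPM + 1). Within the 86A pair the IL5-Tg library was lower in 15 of 40, with a median of 0.26. Over all tested genes it was lower in 6387 of 12428 within the 82C pair (median -0.03) and in 5951 within the 86A pair (median 0.04). Each pair is 1 library against 1, so neither has a replicate check. Without both 82C libraries the median log2 fold change was -0.17 and 0 of 40 genes were called.

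Among the roles, the antiviral effectors were lowest in IL5-Tg replicate 3. Its level of these 18 genes was at a median of 19.8% of the mean of the other 3 IL5-Tg libraries, and it was the lowest IL5-Tg library in 17 of 18. The median over all tested genes was 100.4%. Isg15, a ubiquitin-like protein that is attached to other proteins, was at 79.9, 188 and 259.8 CPM in WT libraries and at 218, 301, 46.9 and 186 CPM in IL5-Tg libraries. The 82C libraries were thus the lowest of each group, and the groups overlapped. Its log2 fold change was 0.10 ± 0.59 (SE; edgeR adjusted p = 0.979).

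Rsad2 encodes viperin, an enzyme that makes an antiviral nucleotide, and Cmpk2, a mitochondrial nucleotide kinase, is its neighbour on chromosome 12. Rsad2 was at 72.0, 152 and 253 CPM in WT libraries and at 141, 191, 21.8 and 156 CPM in IL5-Tg libraries. Cmpk2 was at 11.4, 38.1 and 85.0 CPM in WT and at 47.2, 73.2, 8.96 and 50.7 CPM in IL5-Tg. In both genes IL5-Tg replicate 3 was the lowest of all 7 libraries and WT replicate 3 the highest. The log2 fold changes were -0.32 and 0.01, and the groups overlapped.

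The Ifit genes, whose products bind viral RNA and block its translation, lie side by side on chromosome 19. Ifit3 was at 30.7, 56.7 and 30.8 CPM in WT and at 47.9, 43.0, 5.83 and 64.4 CPM in IL5-Tg libraries, so IL5-Tg replicate 3 had 11.3% of the mean of the other 3. Ifit2 was at 10.1, 17.0 and 10.8 CPM in WT and at 20.1, 20.0, 5.90 and 52.3 CPM in IL5-Tg (log2 fold change 0.96 ± 0.61 SE; edgeR adjusted p = 0.744). Ifit1 was at 11.3, 6.65 and 7.28 CPM in WT and at 15.1, 13.4, 3.21 and 28.2 CPM in IL5-Tg (log2 fold change 0.83). In these genes IL5-Tg replicate 4 was the highest library and WT replicate 3, the highest WT library for Rsad2 and Isg15, was not the highest WT library. Ifit3b had 15 to 74 reads in WT and 6 to 168 reads in IL5-Tg libraries. Of the 42-base stretches of Ifit3 transcripts 55.0% also occur in Ifit3b, so how reads were divided between these copies is uncertain.

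The oligoadenylate synthetases Oas2 and Oas3 activate the RNA-cutting enzyme RNase L, and Oasl1 and Oasl2 are relatives of them. Oas3 was at 22.4, 88.7 and 91.1 CPM in WT and at 101, 202, 17.3 and 64.8 CPM in IL5-Tg. Oasl2 was at 41.6, 119 and 137 CPM in WT and at 119, 179, 41.9 and 151 CPM in IL5-Tg. Oasl1 was at 13.1, 46.4 and 77.4 CPM in WT and at 37.9, 55.3, 8.67 and 39.1 CPM in IL5-Tg. In all 3 genes WT replicate 1 and IL5-Tg replicate 3 were the 2 lowest libraries. Oas2 was less uneven, at 5.49 to 18.9 CPM in WT and 6.63 to 13.6 CPM in IL5-Tg.

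Among the other effectors, Bst2, or tetherin, holds budding virus at the cell surface. It was at 125, 191 and 126 CPM in WT and at 131, 169, 70.3 and 120.0 CPM in IL5-Tg libraries (log2 fold change -0.27 ± 0.31 SE; edgeR adjusted p = 0.898). IL5-Tg replicate 3 was again the lowest library, and WT replicate 2 was the highest. Rtp4, an interferon-induced chaperone of membrane receptors, was at 28.0 to 33.8 CPM in WT, at 25.5 to 32.7 CPM in 3 IL5-Tg libraries and at 9.04 CPM in IL5-Tg replicate 3. Mx1, a dynamin-like antiviral GTPase, was at 33.1 CPM in WT replicate 3 and at 2.84 to 19.4 CPM in the other 6 libraries. Herc6, a ligase that attaches Isg15, was likewise highest in WT replicate 3, at 24.9 CPM against 3.17 to 11.4 CPM elsewhere. Phf11d lay between 3.35 and 16.1 CPM. Mx2 and Ifi44 were below 5 CPM in every library, and Ifi44 had 0 reads in IL5-Tg replicate 3, which allows up to 0.219 CPM by a floor of 3 reads.

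**Figure D3:**
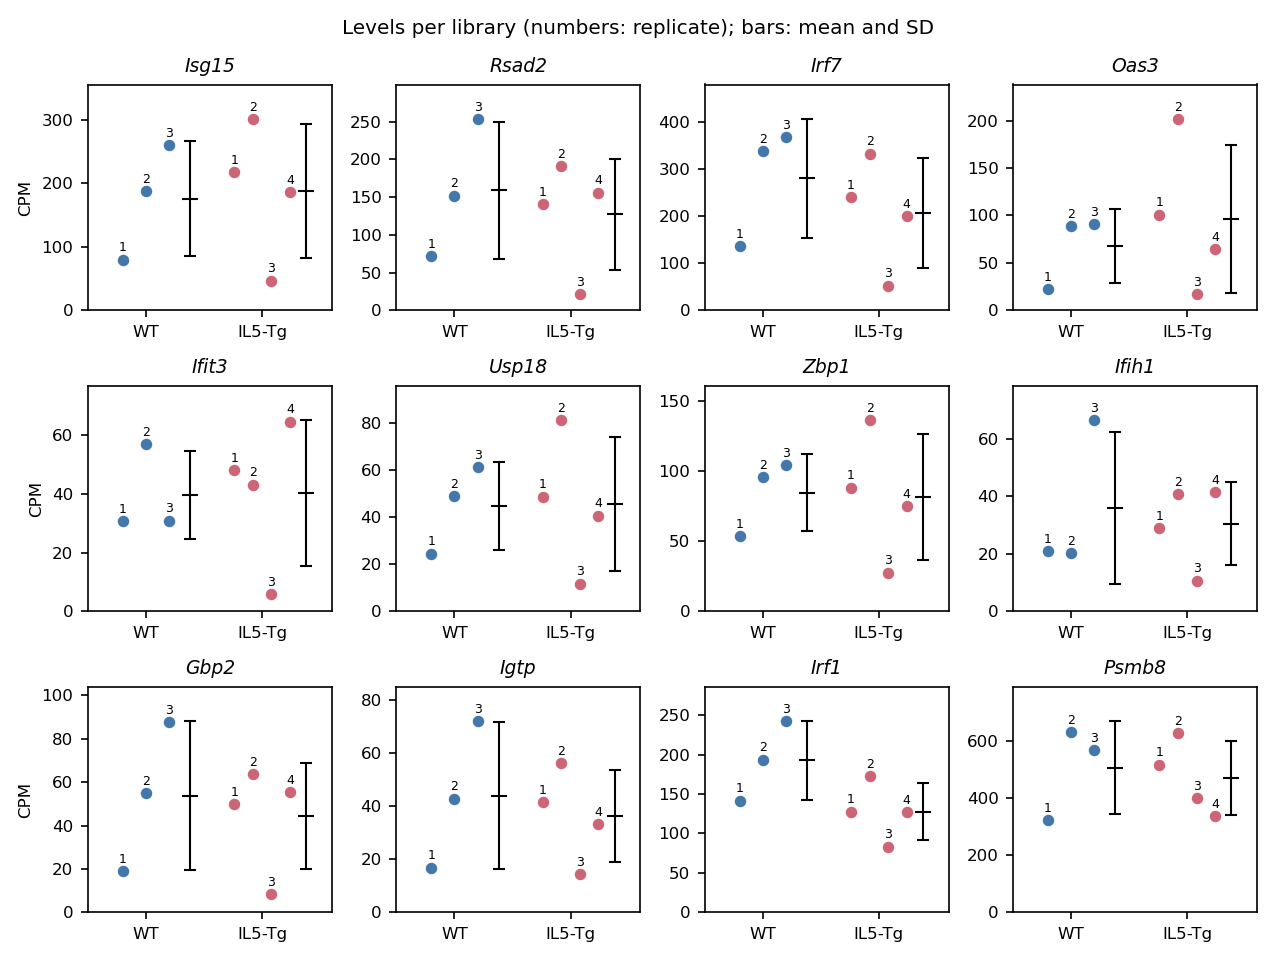
CPM of 12 interferon response genes (y axis from 0) in each WT (blue) and IL5-Tg (red) library, labelled by replicate number, with the group mean and SD as black bars. IL5-Tg replicate 3 is the lowest IL5-Tg library in all panels but Psmb8, where replicate 4 is.

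Sensors of viral nucleic acid were low in the same IL5-Tg library. Zbp1, which detects Z-form nucleic acid and can start cell death, was at 53.5, 95.8 and 104 CPM in WT and at 88.3, 136, 27.5 and 74.9 CPM in IL5-Tg. Ifih1, which encodes MDA5, a cytosolic sensor of double-stranded RNA, was at 21.0, 20.3 and 66.5 CPM in WT and at 29.0, 40.8, 10.6 and 41.5 CPM in IL5-Tg. Ddx60, a helicase linked to such sensors, was at 29.7 to 81 CPM in WT and 21.7 to 60.8 CPM in IL5-Tg. IL5-Tg replicate 3 was the lowest of all 7 libraries for each of the 3 sensors, and WT replicate 3 was the highest WT library. Their log2 fold changes were -0.05, -0.24 and -0.20, and none passed the test.

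The regulators differed in how uneven they were. Irf7, the transcription factor that amplifies the type I response, was at 136, 338 and 368 CPM in WT and at 240.2, 333, 52.6 and 201 CPM in IL5-Tg libraries. Usp18, which removes Isg15 and restrains the type I receptor, was at 24.5, 48.8 and 61.2 CPM in WT and at 48.6, 81.2, 11.8 and 40.5 CPM in IL5-Tg. Both had their lowest WT and lowest IL5-Tg values in the 82C libraries. Stat2, a transcription factor of the type I pathway, was steadier, at 42.3, 41.8 and 60.02 CPM in WT and 47.2, 67.0, 23.5 and 56.3 CPM in IL5-Tg (log2 fold change 0.01 ± 0.34 SE; edgeR adjusted p = 0.995).

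Irf1 and Nlrc5 had the most negative fold changes of the set without passing the test. Irf1, the transcription factor induced early by interferon gamma, was at 142, 194 and 242 CPM in WT and at 128, 172, 83.4 and 127 CPM in IL5-Tg (log2 fold change -0.59 ± 0.29 SE; edgeR adjusted p = 0.616). Nlrc5, the transactivator of class I histocompatibility genes, was at 10.5, 18.6 and 37.8 CPM in WT and at 12.4, 15.7, 7.94 and 13.8 CPM in IL5-Tg (log2 fold change -0.84 ± 0.44 SE; edgeR adjusted p = 0.653). In both genes all 4 IL5-Tg libraries were below WT replicates 2 and 3, and the groups overlapped through WT replicate 1, which 1 IL5-Tg library exceeded for Irf1 and 3 for Nlrc5. A gene on the other strand overlaps exons of both, as it does for Irf7 and Usp18, and with no strand setting named for the counting, reads of such pairs cannot be told apart.

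Guanylate-binding proteins are large GTPases that act on membranes around microbes. Gbp2 was at 19.0, 54.8 and 87.7 CPM in WT and at 49.9, 63.7, 8.53 and 55.3 CPM in IL5-Tg libraries. IL5-Tg replicate 3 thus had 15.1% of the mean of the other 3, and WT replicate 1 had 26.6% of the mean of the other 2 WT libraries. Gbp7 was at 22.7, 15.5 and 42.0 CPM in WT and at 14.5, 22.9, 12.8 and 26.3 CPM in IL5-Tg. Gbp3 lay between 4.01 and 17.3 CPM, Gbp5 between 1.68 and 6.28 CPM and Gbp4 between 0.604 and 4.35 CPM. None of the 5 tested genes passed, and IL5-Tg replicate 3 was the lowest IL5-Tg library in all 5.

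Gbp6 was the 1 gene with no read in any WT library. Its IL5-Tg libraries held 16, 6, 7 and 73 reads, a pooled level of 1.80 CPM. Against a floor of 3 reads in the 3 WT libraries together this was at least 22.0-fold higher. The libraries differ in the low count that is most common among genes, which was 5, 8 and 12 reads in the WT libraries but 1, 1, 1 and 4 reads in the IL5-Tg libraries. Against 3 molecules of 12 reads each in the WT libraries together, the pooled level was 1.83-fold higher. DESeq2 called Gbp6 (adjusted p = 0.0170), without the count filter of the main test. Of the 42-base stretches of its transcripts 71.9% also occur in another gene, Gm43302 and Gbp10 among them, so its reads are uncertain.

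Immunity-related GTPases also act on the vacuoles of microbes, Irgm1, Irgm2 and Igtp as regulators and Iigp1 as an effector. Igtp was at 16.8, 42.8 and 72.0 CPM in WT and at 41.4, 56.3, 14.4 and 33.1 CPM in IL5-Tg. Irgm1 was at 26.3, 44.6 and 95.6 CPM in WT and at 50.1, 64.6, 21.1 and 48.9 CPM in IL5-Tg, and Irgm2 at 11.5, 25.8 and 55.8 CPM and at 27.0, 39.4, 14.6 and 33.2 CPM. The 82C libraries were the 2 lowest of the 7 in all 3 genes. Exons of Igtp and Irgm2 overlap on the same strand, and 13.4% of the 42-base stretches of Igtp occur in other genes, so how reads were divided between them is uncertain.

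Iigp1 did not share this pattern. It was at 4.41, 4.54 and 1.13 CPM in WT and at 10.8, 4.23, 4.96 and 24.2 CPM in IL5-Tg libraries, with the lowest value in WT replicate 3 and the highest in IL5-Tg replicate 4. The log2 fold change was 1.71 ± 0.75 (SE; edgeR adjusted p = 0.536), the highest of the 39 tested genes. IL5-Tg replicate 2 lay between the WT values, so the groups overlapped. The WT libraries held 73, 43 and 12 reads of Iigp1, where their most common low counts were 5, 8 and 12 reads. The value in WT replicate 3 may thus stand for few molecules, and it is under the 3.40 CPM that 3 such molecules would give there. The fold change rests in part on that value.

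Genes of antigen processing were less low in IL5-Tg replicate 3 than the other roles were. Psmb8, Psmb9 and Psmb10 encode the catalytic subunits of the immunoproteasome, and Tap2 is a chain of the transporter that carries peptides to class I molecules. IL5-Tg replicate 3 stood at a median of 78.1% of the other IL5-Tg libraries over these 4 genes, with a range of 66.6% to 83.0%. WT replicate 1, in contrast, was the lowest WT library in all 4, at a median of 51.6% of the other 2. Psmb8 was at 322, 629 and 568 CPM in WT and at 516, 626, 399.8 and 336 CPM in IL5-Tg. Tap2 was at 152, 231 and 377 CPM in WT and at 269, 320.0, 199 and 208 CPM in IL5-Tg. Psmb10 was at 145, 295 and 253 CPM in WT and at 239.8, 239.7, 134 and 124 CPM in IL5-Tg. For Psmb8, Psmb9 and Psmb10 IL5-Tg replicate 4 was the lowest IL5-Tg library. The log2 fold changes of the 4 genes were between -0.33 and 0.03, and none passed. Exons of Psmb9 overlap Tap1 on the other strand, and those of Psmb8 and Tap2 overlap Gm20496.

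**Figure D4:**
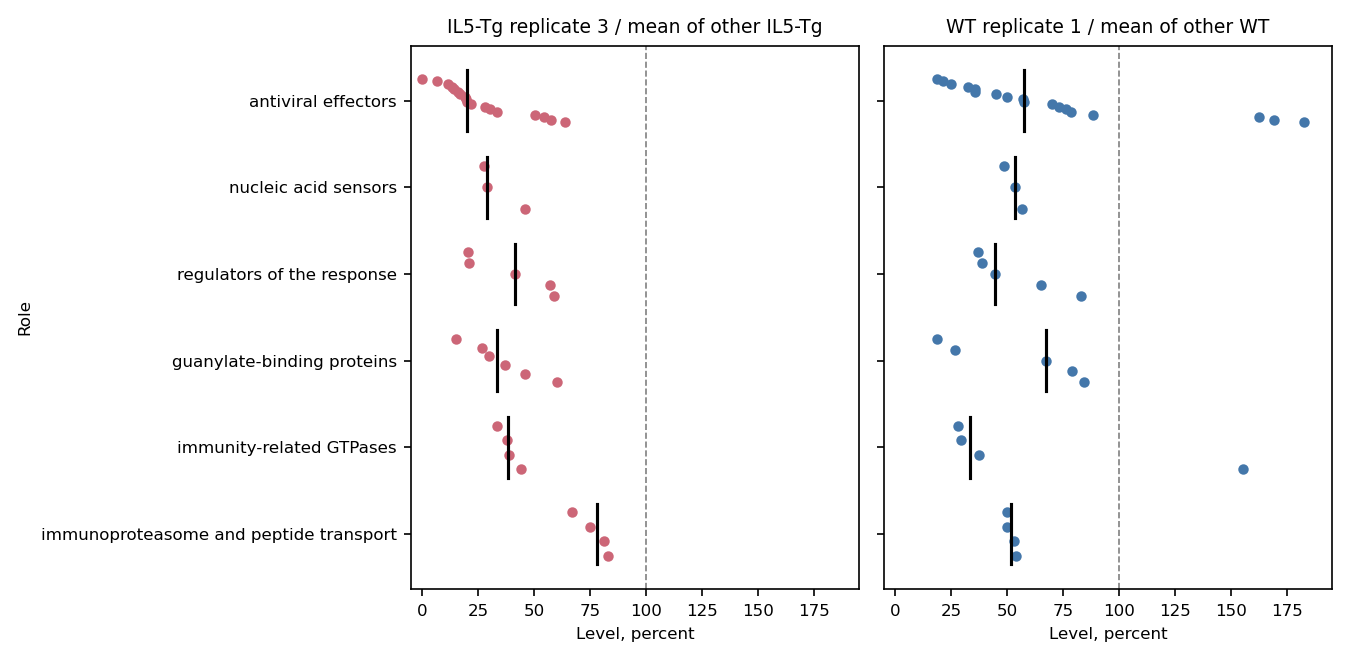
Level of each gene (points) in IL5-Tg replicate 3 as a percent of the mean of the other 3 IL5-Tg libraries (left, red), and in WT replicate 1 as a percent of the mean of the other 2 WT libraries (right, blue), by role, with role medians as black lines and 100% dashed. The left medians go from 19.8% for antiviral effectors to 78.1% for immunoproteasome and peptide transport, and no gene reaches 100% there.

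Per kb of annotated exon, Isg15, Bst2, Psmb8 and Psmb10 had the highest levels of the set. Their WT means were 233, 163, 149.7 and 136 CPM per kb and their IL5-Tg means 249, 136, 139 and 108 CPM per kb. Isg15 alone spanned 106 to 344 CPM per kb over WT libraries, so these neighbours in the order did not differ beyond their spread. Irf7 (74.3 and 54.7 CPM per kb), Tap2 (67.0 and 65.9) and Irf1 (48.4 and 32.1) came next. At the low end were Mx2, Gbp4, Gbp5, Ifi44 and Gbp6, each under 1 CPM per kb in both group means.

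By median, genes with and without an ISRE match were about equally low in IL5-Tg replicate 3, a comparison that was not tested. The 17 genes with an ISRE match stood at a median of 29.8% of the other IL5-Tg libraries, with a range of 6.70% to 60.1%. The 12 genes with a window but no such match stood at a median of 30.7%, from 0% for Ifi44 to 83.0% for Psmb9. Irf7, Oasl1 and Cmpk2 were among the latter, at 20.4%, 19.7% and 15.7%. No match says only that these letters are not in that window.

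Few reads of the interferons themselves were found. Of 21 interferon genes listed, 1 had any read, Ifng, with 4 reads in IL5-Tg replicate 1. A count of 0 allows up to 0.156 to 0.317 CPM in a library by a floor of 3 reads, and up to 0.219 to 3.40 CPM if a molecule gives as many reads as the most common low count of that library. Of 6 receptor genes 5 had enough reads to be tested and 0 passed, all 5 with a log2 fold change below 0. Over all tested genes 0.41% passed, and 5956 of 12428 had a log2 fold change below 0. The untested one, Ifnlr1, a receptor chain for type III interferons, is named after its values were seen. It had 7, 12 and 0 reads in WT libraries and 0 reads in all 4 IL5-Tg libraries. The most common low count was 5 and 8 reads in WT replicates 1 and 2, so these reads may stand for few molecules. Ifnar1 was at 112, 71.0 and 102 CPM in WT and at 43.3, 50.3, 58.9 and 59.8 CPM in IL5-Tg libraries (log2 fold change -0.84 ± 0.24 SE; edgeR adjusted p = 0.287). Each IL5-Tg library was below each WT library, and IL5-Tg replicate 3 was not the lowest. Ifngr2 was at 106, 40.3 and 87.9 CPM in WT and at 38.5, 44.2, 44.2 and 50.2 CPM in IL5-Tg (log2 fold change -0.82; edgeR adjusted p = 0.467).

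Of 11 transducers of the JAK, STAT and IRF families 0 passed, with Irf8 at a log2 fold change of 0.53 and Irf4 at 1.55 having the smallest p. Irf9, a partner of Stat2 that is named after its values were seen, was at 46.3, 88.3 and 87.1 CPM in WT and at 73.9, 99.5, 33.7 and 60.2 CPM in IL5-Tg. The 82C libraries were its 2 lowest. Over the 11 transducers IL5-Tg replicate 3 was the lowest IL5-Tg library in 5 (45.5%), at a median of 87.8% of the others. WT replicate 1 was the lowest WT library in 6 (54.5%), at a median of 75.2% of the others. Of 13 genes that sense nucleic acid or relay that signal to induce interferon 0 passed. Tbk1, the kinase that activates Irf3, was at 78.8, 32.9 and 67.3 CPM in WT and 22.8 to 32.7 CPM in IL5-Tg (log2 fold change -1.05; edgeR adjusted p = 0.307). Tmem173, which encodes STING, was at 76.7, 122 and 114 CPM in WT and 46.7 to 68.3 CPM in IL5-Tg (log2 fold change -0.77; edgeR adjusted p = 0.362).

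Of 10 negative regulators 1 rose and 0 fell, where 0.338% of all tested genes rose and 0.0724% fell. Socs1, an inhibitor of JAK kinases that restrains interferon signalling and is also induced by other cytokines, was at 19.6, 16.5 and 18.8 CPM in WT and at 53.5, 76.2, 84.5 and 59.4 CPM in IL5-Tg libraries. Its log2 fold change was 1.90 ± 0.26 (SE; edgeR adjusted p = 0.0165), and the groups did not overlap. Its highest value was in IL5-Tg replicate 3, the library with the lowest level of the interferon response genes. The edgeR adjusted p was 0.0950 without WT replicate 1, 0.0844 without IL5-Tg replicate 2 and 0.0643 without IL5-Tg replicate 3.

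A list of 59 other interferon-induced genes, of which 56 were tested, had 0 calls. Of the log2 fold changes 24 were above 0 and 32 below, with a median of -0.12. Over all tested genes 6472 were above 0 and 5956 below. Ifitm6, of the family of interferon-induced transmembrane proteins, was at 11.2, 10.03 and 14.2 CPM in WT and at 2.25, 2.46, 3.21 and 2.44 CPM in IL5-Tg (log2 fold change -2.19 ± 0.45 SE; edgeR adjusted p = 0.0922). Wars, a tRNA synthetase induced by interferon gamma, was at 48.9, 53.9 and 56.3 CPM in WT and at 108, 124, 96.3 and 79.1 CPM in IL5-Tg (log2 fold change 0.94 ± 0.24 SE; edgeR adjusted p = 0.186). Groups of both genes did not overlap, and IL5-Tg replicate 3 was not the lowest IL5-Tg library in either. Over the whole list, however, IL5-Tg replicate 3 was the lowest IL5-Tg library in 35 of 56 genes (62.5%), and its median was 53.1% of the other 3. WT replicate 1 was the lowest WT library in 25 of 56 (44.6%).

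Libraries also differed in the RNA of other cell types, and in bulk RNA fewer cells of a type and less RNA per cell cannot be told apart. All 10 eosinophil markers had reads in every library. Their sum was 3761 to 7425 CPM in WT and 5212 to 9707 CPM in IL5-Tg. Of these markers 3 were called higher in IL5-Tg and 0 lower, against 0.338% and 0.0724% of all tested genes. Il5 was at 338 to 447 CPM in IL5-Tg libraries and at most 1.39 CPM in WT. The 11 macrophage and monocyte markers summed to 4574 to 7076 CPM in WT and 5792 to 7831 CPM in IL5-Tg, with none at 0. IL5-Tg replicate 3 had the highest sum. The macrophage sum was above the eosinophil sum in WT replicates 1 and 2 and IL5-Tg replicates 3 and 4, but not elsewhere. In WT replicate 2 it was 7076 CPM against 3761 CPM. The lists hold different genes, so these sums do not compare cell numbers. The 7 dendritic cell markers summed to 135 to 159 CPM in WT and to 612, 782, 159 and 210.0 CPM in IL5-Tg replicates 1, 2, 3 and 4. The 7 fibroblast markers summed to 13.6 CPM in WT replicate 3 and to 1779 to 4348 CPM in the other 6 libraries, and muscle markers to 42.7 CPM there against 358 to 1202 CPM. Neutrophil markers summed to 373, 129 and 16.4 CPM in WT and to 31.8 to 42.0 CPM in IL5-Tg, and mast cell and basophil markers to 79.7 to 108 CPM in WT and 3.07 to 30.2 CPM in IL5-Tg. Endothelial markers summed to 163 to 182 CPM in WT and 138 to 274 CPM in IL5-Tg. T cell markers summed to 1.32 to 8.45 CPM, B cell markers to 2.38 to 8.79 CPM, with Pax5 at 0 reads in every library, and NK and innate lymphoid markers to 7.84 to 32.7 CPM. The 6 plasmacytoid dendritic cell markers, which include the member Bst2, summed to 101 to 229 CPM. The part of these cells in the levels of interferon response genes was not tested.

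The part of sequencing depth in the low levels of WT replicate 1 and IL5-Tg replicate 3 was not tested. Counts in genes were 15231635 in WT replicate 1 and 13196018 in IL5-Tg replicate 3, within the range of 9665093 to 17447106 over all libraries, and total counts ranged from 11581365 to 20231509. Genes detected numbered 13813 and 14391 in these 2 libraries, against 10877 to 14369 in the other 5.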

How the data were processed

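The authors deposited raw read counts per gene symbol, with no normalization, for 7 libraries. The submitters' processing notes name bcl2fastq 2.20, Bowtie, STAR and the mm10 build, and the sources used here name no counting program, annotation or strand setting. Reads of no feature (9.15% to 18.2% of a library) and ambiguous reads (0.750% to 0.943%) were left out, and 9665093 to 17447106 counts in genes remained per library.

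Genotypes were compared over all 12428 genes that passed filterByExpr, with edgeR 4.0.16 (R 4.3.3; robust quasi-likelihood test, TMM scaling, no covariate, Benjamini-Hochberg adjustment), and genes with an adjusted p under 0.05 were called. Fold changes are IL5-Tg over WT. Standard errors and 95% intervals come from the fold change and its F statistic, and floors of 3 reads cover counting error only. The test was checked on simulated counts.

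The genes and lists were chosen with earlier results of these data known. All 40 genes are named; of each other list the text names the called genes (at most 4) or else the 2 with the smallest p, and any interferon with a read. The alternatives tried were RLE and upper-quartile scaling, DESeq2 1.42.0, limma 3.58.1 (voom with quality weights), no robust estimation, no count filter or a mean of at least 10 CPM, counts divided by the most common low count, shared title starts as a block and each library left out. Leaving out both 82C libraries was chosen after seeing the data. Gene positions and exons are GENCODE vM21 on mm10, and promoters RefSeq on GRCm38.p6, the same assembly.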

Additional observations from a re-analysis of the deposited data

Results flagged for a closer look

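Of 50 genes examined in the 4 IL5-Tg libraries, 1 had a library far from the others by Dixon's criterion, which chance meets in about 1 of 20 groups. This was Ifng, the gene of interferon gamma, at 0.375 CPM (4 reads) in IL5-Tg replicate 1 and 0 reads in the other 6 libraries. None of the 40 interferon response genes met the criterion.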

How the results depend on the processing

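The number of interferon response genes called was 0 by every edgeR and limma fit run, and 1 by DESeq2. Their median log2 fold change of -0.11 ranged from -0.18 to -0.02 over the settings that kept all libraries, and from -0.35 to 0.34 with each library left out in turn. Genes called among all tested, 51 in the main test, numbered 224 by DESeq2, 22 by limma-voom, 100 after division by the most common low count, 10 without both 82C libraries and 16 to 97 with each library left out. In the other pathway lists 1 gene was called, against 2 by DESeq2, 0 by limma-voom, 2 after that division, 0 without both 82C libraries and 0 to 1 with each library left out. By limma-voom the adjusted p of Socs1 was 0.131, and without both 82C libraries 0.314.

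Since no member was called, their fold changes have no firm sign, and under the alternatives 552 values kept their sign while 100 had the opposite one, none of them past the threshold. These log2 fold changes were, by limma-voom, Ifit3 (-0.74), Ifit3b (-0.53), Isg15 (-0.060), Oas2 (0.25), Ifi44 (-1.54), Herc6 (0.13), Stat2 (-0.18), Usp18 (-0.24), Gbp4 (0.55), Gbp5 (-0.094), Irgm2 (0.30), Psmb8 (0.012) and Tap2 (0.20). By upper-quartile scaling they were Oas2 (0.026) and Tap2 (0.0029), after division by the most common low count Oas2 (0.086) and Gbp4 (0.20), and without both 82C libraries Cmpk2 (-0.10), Phf11d (0.071), Zbp1 (0.0019) and Psmb9 (-0.16). With each library left out in turn the ranges that crossed 0 were Ifit3 -0.29 to 0.41, Isg15 -0.25 to 0.51, Mx1 -1.05 to 0.64, Mx2 -0.63 to 0.29, Oas2 -0.31 to 0.74, Oas3 -0.15 to 0.86, Oasl1 -0.81 to 0.26, Oasl2 -0.057 to 0.62, Rsad2 -0.66 to 0.20, Ifi44 -0.016 to 0.93, Cmpk2 -0.44 to 0.88, Herc6 -0.84 to 0.81, Phf11d -0.62 to 0.18, Zbp1 -0.42 to 0.24, Ifih1 -0.50 to 0.59, Ddx60 -0.46 to 0.46, Stat2 -0.18 to 0.24, Usp18 -0.42 to 0.34, Gbp2 -0.68 to 0.29, Gbp3 -0.10 to 0.66, Gbp4 -0.64 to 0.63, Gbp5 -0.14 to 0.33, Gbp7 -0.74 to 0.027, Igtp -0.65 to 0.31, Irgm1 -0.60 to 0.40, Irgm2 -0.51 to 0.64, Psmb8 -0.34 to 0.10, Psmb9 -0.22 to 0.25 and Tap2 -0.28 to 0.40. The cause was not tested.

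The labels give no replicate numbers that pair the groups. IL5-Tg replicates 1 and 2 share the start 81E and WT replicate 3 stands alone, so with the shared start of titles as a replicate block the fold changes rest on the 82C and 86A pairs, 4 of the 7 libraries. In this fit 52 genes and 0 members were called, and the values that changed sign were Ifit3 (-1.07), Ifit3b (-0.81), Isg15 (-0.39), Mx1 (0.18), Mx2 (0.31), Oas2 (0.61), Oas3 (-0.41), Ifi44 (-1.28), Herc6 (0.70), Ifih1 (0.035), Ddx60 (0.10), Stat2 (-0.21), Usp18 (-0.65), Gbp4 (0.20), Gbp5 (-0.18), Irgm2 (0.36), Psmb9 (-0.082) and Tap2 (0.12). Over the 12428 tested genes the deviations of libraries that share a start from their group means correlated across genes at 0.18 for the 82C pair and -0.02 for the 86A pair. Pairs of a WT and an IL5-Tg library that share no start ran from -0.40 to 0.54, a range that holds both values. These correlations cover all tested genes and cannot speak to the interferon response genes alone. Deviations from a group mean balance out within the group, so the pairs are not independent. The part of the shared start in the low levels of the 82C libraries was not tested.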
